A study of Drosophila melanogaster with 17 samples.

Results

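Larval axonal sections carrying OK371-GAL4/UAS-Flag-GFP-RpL10 were compared with adult legs carrying DIP-gamma-GAL4/UAS-Flag-GFP-RpL10, in 3 TRAP samples each, which are 6 of the 17 samples of the series. The larval samples were taken at the L3 stage and the leg samples from flies aged 2 days. Controls of both tissues, 3 of larval axonal sections and 2 of legs, carried UAS-Flag-GFP-RpL10/+ without a driver and are given beside the TRAP values, so that all 11 samples shared the transgene. OK371-GAL4 is an enhancer trap in the vesicular glutamate transporter gene VGlut and labels motor neurons broadly, whereas DIP-gamma-GAL4 labels a narrower subset of motor neurons. The study describes leaky expression of the transgene without a driver, every sample pooled many animals, and the leg samples held males and females. Stage, tissue, driver and sequencing order change together between the 2 preparations and cannot be told apart.

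In TRAP (translating ribosome affinity purification) a tagged ribosomal protein, here Flag-GFP-RpL10, is expressed in chosen cells, and ribosomes that carry the tag are pulled down with the mRNAs bound to them. Larval motor axons leave the ventral nerve cord and end on body wall muscles under the epidermis, which secretes a soft cuticle of the larval kind. Adult motor axons of the leg lie beside tubular muscles, sensory neurons of taste and touch bristles, glia and blood cells, inside an epidermis that secretes adult cuticle. A steroid pulse (ecdysone) at the end of larval life sets off a cascade of transcription factors and nuclear receptors. Neither preparation contains motor neuron cell bodies by design, and mRNA that binds without the tag, or from leaky tag expression in other cells, is recovered in TRAP and control samples alike.

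The larval TRAP libraries held 51111444, 55654887 and 41211154 counts on genes and the leg TRAP libraries 65975150, 71606391 and 79725793. At this depth 3 counts, taken as the limit of detection, correspond to 0.0376 to 0.0728 CPM (counts scaled to the library total), a limit that covers counting error only. The larval replicates stood far apart from one another. Replicate 1 lacked a count in 782 genes, replicate 2 in 6086 and replicate 3 in 3163, against 4924 to 5350 genes in the leg replicates. The 20 most abundant genes took 62.0% of the counts of larval replicate 2, 40.1% and 42.7% in the other two, and 26.6% to 29.3% in legs. Pearson's r of log2 CPM across genes, which are not independent replicates, lay between 0.764 and 0.869 among larval TRAP samples and between 0.926 and 0.946 among leg TRAP samples. It was 0.372 to 0.532 between the preparations. Genes of odorant receptors, known from the olfactory organs, summed to 133, 3.50 and 22.2 CPM in larval replicates 1 to 3 and 54.7, 52.7 and 41.6 CPM in leg replicates 1 to 3. Genes of tRNAs summed to 158, 2.43 and 236 CPM in larval replicates and 3.83 to 7.5 CPM in leg replicates. Scaling factors (TMM, which sets the bulk of genes equal) were 1.45, 0.469 and 0.962 for larval replicates and 1.13 to 1.17 for leg replicates. CPM values below are plain, while log2 differences, larval minus leg, come from the TMM-scaled fit.

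The preparations differed in many of the 16494 genes tested. In larval TRAP 1434 genes (8.69%) were higher and 1376 (8.34%) were lower than in leg TRAP, at an edgeR quasi-likelihood p-value under 0.05 after Benjamini-Hochberg adjustment over all genes (edgeR adjusted p). The genes with the largest differences included those of larval cuticle and salivary gland glue proteins among the higher and of odorant-binding proteins and a neuropeptide-like precursor among the lower, beside many with no function in the tables. In the driverless controls, 3 larval against 2 leg samples fitted the same way, 1654 of 16532 genes (10%) were higher and 1775 (10.7%) lower, at a median of 0.58. All 3 larval TRAP samples were above all 3 leg samples in 1884 genes (11.4%) and below them in 3732 (22.6%). In every list below, members called higher or lower are to be read against 8.69% and 8.34% of all genes. Members wholly above or below the leg samples are to be read against 11.4% and 22.6%. In bulk samples, fewer cells of a type and less RNA per cell cannot be told apart, which holds for every list below. The scaling bears on the balance of directions. Scaled by library size alone, 647 genes were higher and 1383 lower, so that the share of higher genes among those called was 31.9%, against 51.0% with TMM. The median log2 difference of all genes was 0.72 with TMM and 0.49 with library size alone. Over the 6399 genes whose mean reached 10 CPM it was -0.002 with TMM and -0.38 with library size alone, so that medians of abundant lists are to be read against this pair and not against that of all genes. Computed from TMM-scaled group means, with means under 3 counts set to that floor, the median was 0.54 over the 15167 genes above the floor in either group. Without 1 library there were between 652 (without leg TRAP replicate 3) and 2559 (without larval TRAP replicate 2) genes higher, and between 935 and 2189 genes lower with the same libraries left out.

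**Figure D1:**
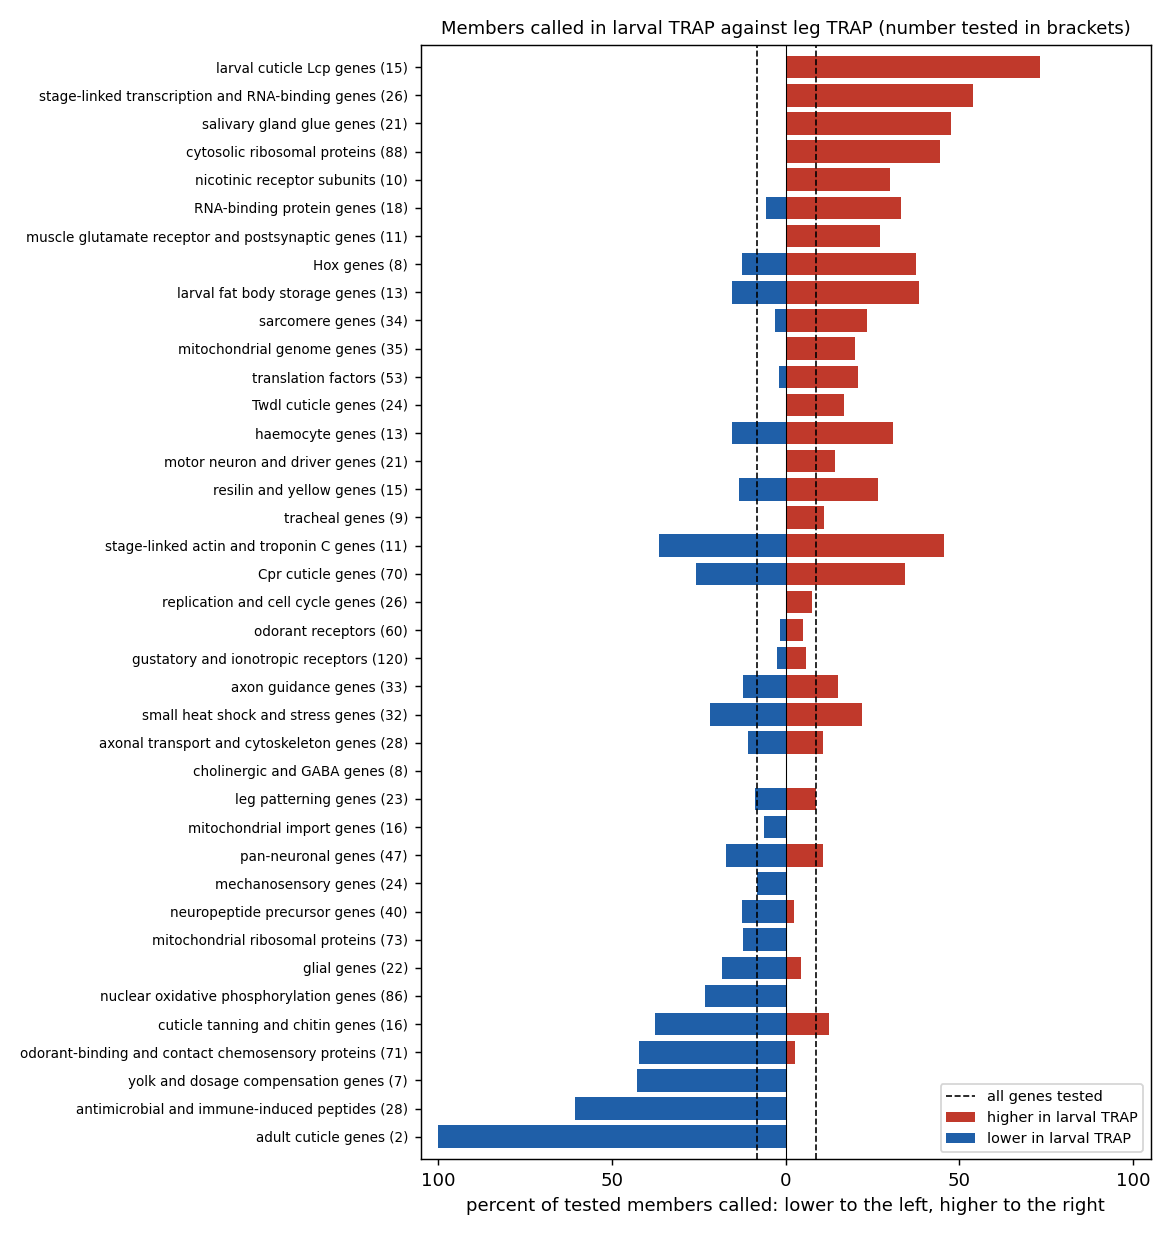
Percent of the tested members of each gene list that were called higher (red, to the right) or lower (blue, to the left) in larval TRAP than in leg TRAP, at an edgeR adjusted p under 0.05, with the number tested in brackets and the shares of all genes (8.69% and 8.34%) as broken lines. Lists are ordered by the share called higher minus the share called lower, from Lcp genes at the top (11 of 15 higher) to the pair of adult cuticle genes at the bottom (both lower).

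Of the 12 genes with the largest increase by the naming rule, 3 encode larval cuticle proteins (Lcp4, Lcp2, Lcp65Ab1), 3 belong to the salivary gland list (Sgs3, Sgs4, Eig71Ee), and 6 carry no function in the tables (CG15308, CR45629, CG9877, CG42500, pncr015:3L, CG7924). CG15308 and CR45629 overlap on the X chromosome and their reads cannot be told apart. CG15308 (FBgn0040941, chromosome X from 10217913 to 10219139 of BDGP6) stood at 6609, 8116 and 7189 CPM in larval TRAP and had 0 counts in all 3 leg TRAP libraries. Set against a floor of 3 counts in each library, the increase was at least 175320.0-fold (edgeR adjusted p = 3.79e-05). Driverless controls held it as well, at 11964, 9171 and 7767 CPM in larvae and 0 and 0.386 CPM in legs.
CG42500 (FBgn0260226, chromosome 3R from 14152211 to 14152650) was among the most abundant larval transcripts, at 68848, 143820.0 and 151340.0 CPM in larval TRAP and 0.333, 0.447 and 0 CPM in leg TRAP. Larval and leg samples did not overlap, larval controls held 81948, 38843 and 31024 CPM, and the call was lost without leg TRAP replicate 3 (edgeR adjusted p = 0.11).
The non-coding gene pncr015:3L varied widely among the larval replicates, at 53.4, 444 and 2197 CPM, and was at 0 in leg TRAP.

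The 12 genes with the largest decrease were Obp57a and Obp57b (odorant-binding proteins), Nplp3 (a neuropeptide-like precursor), Acp1 (adult cuticle), whe, lcs, CG45080, CG34212, CG5945, CG6503, CG4000 and CG16826. Nplp3 (FBgn0042201, chromosome 3L from 16318024 to 16318690) was at 0.274, 0 and 0 CPM in larval TRAP and 39372, 54782 and 44307 CPM in leg TRAP, and Acp1 (FBgn0014454, chromosome 2L from 7740562 to 7741537) at 0.333, 0 and 0.146 CPM in larval TRAP and 19260.3, 24866 and 21895 CPM in leg TRAP. Both were likewise near 0 in larval controls, with at most 0.0906 CPM, and abundant in leg controls, at 31146 and 39932 CPM for Nplp3 and 11042 and 15482 CPM for Acp1. Obp57a had 0 counts in all larval TRAP libraries and 1321, 1206 and 2130.0 CPM in leg TRAP, at least 25119-fold lower in larvae (edgeR adjusted p = 7.34e-06). CG16826 stood out for its spread among legs, at 1.31, 0 and 0.291 CPM in larval TRAP and 32031, 10776 and 13441 CPM in leg TRAP, with leg replicate 1 highest. Leg replicate 1 was also the highest leg TRAP sample for whe, lcs, CG45080 and CG34212, by more than the spread of the other leg replicates.

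Cuticle genes of the larva and of the adult were each abundant in their own preparation and near 0 in the other. Among 15 larval cuticle (Lcp) genes 11 were higher in larval TRAP and 0 lower, and their summed level was 214888, 308309 and 157707 CPM in larval TRAP against 12.2, 8.98 and 10.02 CPM in leg TRAP. Both adult cuticle genes, Acp1 and Acp65Aa, were lower in larval TRAP. Of 70 genes of the Cpr family, chitin-binding cuticle proteins with the Rebers and Riddiford motif, 24 were higher and 18 lower. In larval controls the Lcp sum was 200229, 84954 and 82774 CPM, and in leg controls 7.77 and 3.92 CPM.
Lcp4 (FBgn0002535, chromosome 2R from 8437647 to 8438495) alone reached 87673, 120696 and 54203 CPM in larval TRAP, with 0.136, 0.0140 and 0 CPM in leg TRAP. Larval replicate 2 was the highest for Lcp4, Lcp2 and Lcp65Ab1. The call of Lcp4 was lost without leg TRAP replicate 3 (edgeR adjusted p = 0.0586), and the number of Lcp genes higher was between 8 (without leg TRAP replicate 3) and 14 (without larval TRAP replicate 1).
Within the Cpr family several members were read almost only in a single preparation. Cpr65Aw (FBgn0052404, chromosome 3L from 6141903 to 6142413) was at 109.9, 124 and 162 CPM in larval TRAP with 0 counts in leg TRAP, at least 3167-fold higher (edgeR adjusted p = 6.93e-06), and Cpr78E at 26041, 22792 and 12258 CPM in larval TRAP against 0.818, 1.17 and 1.69 CPM in leg TRAP. Cpr100A (FBgn0039805, chromosome 3R from 30867521 to 30869184) was at 2.21, 0.0539 and 0.0243 CPM in larval TRAP and 1492, 1592 and 1691 CPM in leg TRAP, a log2 difference of -11.20 (SE 1.37, edgeR adjusted p = 0.000107). Other Cpr genes with over 900 CPM in every leg TRAP sample and under 6 CPM in every larval one were Cpr49Ae, Cpr65Au and Cpr97Eb. Of the 70 Cpr genes 28 lay wholly above the leg samples and 21 wholly below, against 11.4% and 22.6% of all genes.

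Enzymes that harden and modify cuticle differed member by member. Of 16 genes of tanning and chitin handling 2 were higher in larval TRAP and 6 lower, against 8.69% and 8.34% of all genes. Ddc (overlapping CG10561), the dopa decarboxylase that makes dopamine for sclerotisation, was at 1634, 903 and 2489 CPM in larval TRAP and 92.6, 93.6 and 126 CPM in leg TRAP (log2 difference 4.37, SE 0.65, edgeR adjusted p = 0.000472), without overlap of the samples. The chitinase Cht5 was the other higher gene, at 186, 141 and 156 CPM in larval TRAP and 53.4, 63.2 and 54.1 CPM in leg TRAP. The chitin deacetylase Cda5 was at 18.7, 4.15 and 4.83 CPM in larval TRAP and 168, 173 and 117 CPM in leg TRAP (-3.89, SE 0.48, edgeR adjusted p = 0.000114), and the chitin deacetylases serp and verm, the chitin-binding protein gene Gasp and the tanning oxidase gene laccase2 were lower as well. In the yellow and resilin list 4 of 15 were higher and 2 lower, against the same shares of all genes. Its paralogs moved apart, with yellow-d2 at 1211, 1037 and 1157 CPM in larval TRAP and 28.1, 27.8 and 19.9 CPM in leg TRAP, and yellow-f2 at 1.72, 0.0180 and 0.146 CPM in larval TRAP and 46.1, 49.4 and 60.9 CPM in leg TRAP. Among Twdl cuticle genes 4 of 24 were higher, all at low level, and 0 lower. No Twdl gene was called with library size alone or without leg TRAP replicate 3. TwdlE, the most abundant of them, was at 15.4, 3.32 and 14.1 CPM in larval TRAP and 7.91, 4.44 and 9.66 CPM in leg TRAP (0.75, edgeR adjusted p = 0.352).

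**Figure D2:**
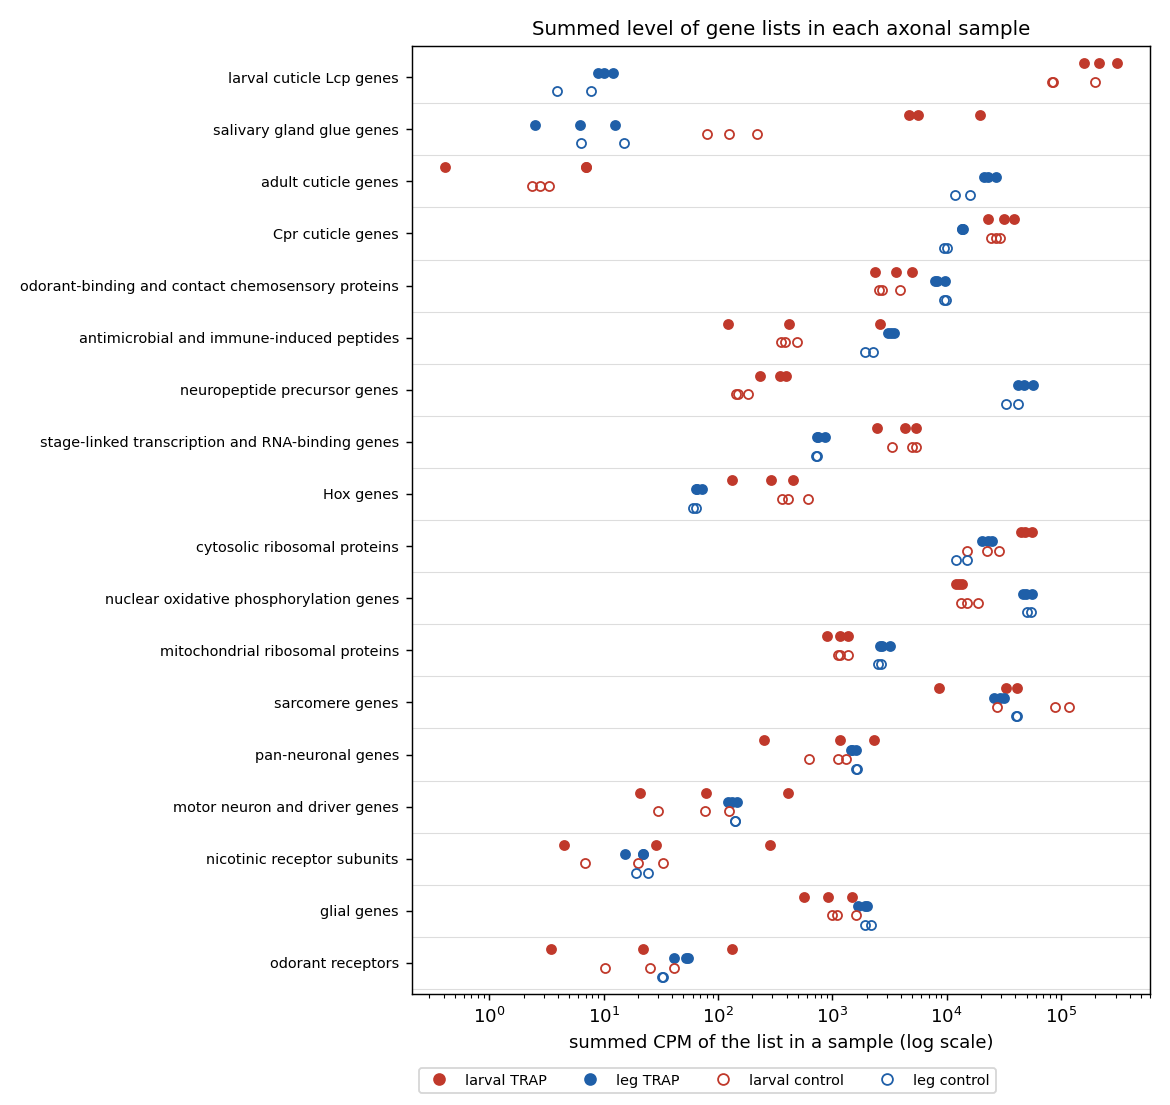
Summed CPM (log axis) of 18 gene lists in each of the 11 axonal samples, with larval samples in red and leg samples in blue, TRAP filled and controls open, each group on its own line. Larval and leg samples lie far apart for the Lcp, adult cuticle and neuropeptide lists, whether filled or open, and for the glue list mainly where filled. They lie closer for the Cpr list. The 3 larval TRAP points of neuronal and receptor lists spread on both sides of the leg points.

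Transcripts of salivary gland glue proteins were abundant in larval TRAP, although the glands were removed at dissection per the methods. Of 21 genes tested 10 were higher and 0 lower, with a summed level of 4703, 19539.8 and 5571 CPM in larval TRAP and 12.7, 6.24 and 2.52 CPM in leg TRAP. Larval controls held 80.9, 219 and 124 CPM of the same genes and leg controls 15.1 and 6.35 CPM.
Sgs3 (FBgn0003373, chromosome 3L from 11512221 to 11513402), a glue protein that fixes the pupal case, was at 911, 2789 and 1142 CPM in larval TRAP and at 0 counts in leg TRAP, at least 38738-fold higher (edgeR adjusted p = 3.66e-05). In larval controls it was at 7.31, 30.4 and 16.5 CPM, and within larvae TRAP exceeded control by 7.35 on the log2 scale (edgeR adjusted p = 0.021). Sgs7, at 1709, 9518 and 1960.3 CPM in larval TRAP and 0, 0.223 and 0.0125 CPM in leg TRAP, was the most abundant member. Replicate 2 was the highest larval TRAP sample for Sgs3, Sgs4, Sgs7, Eig71Ee and also for sage, the salivary gland transcription factor (35.4, 51.3 and 47.9 CPM in larval TRAP, 8.12, 1.77 and 1.08 CPM in leg TRAP). The part of gland RNA in the larval values was not tested.

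Many ecdysone-response and stage-linked genes were higher in larval TRAP. Of 26 genes 14 were higher and 0 lower, at a median log2 difference of 2.40 against 0.72 for all genes and -0.002 for those of at least 10 CPM. Wholly above the leg samples lay 14 of the 26, against 11.4% of all genes. The gene br (broad, FBgn0283451, chromosome X from 1575132 to 1664869, overlapping Mur2B), a zinc finger factor of the larval to pupal change, was at 1574, 388 and 2029 CPM in larval TRAP and 0.0758, 0.838 and 0.753 CPM in leg TRAP. Its log2 difference was 11.43 (edgeR adjusted p = 2.56e-05), and the groups did not overlap.
EcR, the ecdysone receptor, was at 265, 67.7 and 271 CPM in larval TRAP and 12.6, 12 and 6.07 CPM in leg TRAP, lowest in replicate 2 among larvae and yet above every leg sample. The ecdysone-induced factor genes Eip74EF, Eip75B and Eip78C and the nuclear receptor genes Hr4 and Hr39 were all higher, with log2 differences of 4.43, 3.64, 7.42, 6.76 and 2.02. The mRNA-binding protein gene Imp (202, 25.8 and 87.8 CPM in larval TRAP, 15.4, 15.7 and 6.66 CPM in leg TRAP) and the temporal factor gene chinmo (108, 13.2 and 51.5 CPM in larval TRAP, 1.97, 2.04 and 1.27 CPM in leg TRAP) were also higher. In the driverless controls 16 of the 26 were higher and 2 lower.

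Genes of body region were called in both directions. Hox genes encode homeodomain factors that set segment identity, from lab at the head end to Abd-B at the tail end. The 2 abdominal members, abd-A and Abd-B, were higher in larval TRAP, Scr was lower, and Antp and Ubx did not pass the test. The larval sections come from the trunk, while legs belong to the thorax.
For abd-A (FBgn0000014, chromosome 3R from 16807214 to 16830049) the values were 159, 98.9 and 351 CPM in larval TRAP and 0, 0.209 and 1.74 CPM in leg TRAP, a log2 difference of 8.62 (SE 1.38, edgeR adjusted p = 0.000783). Abd-B followed the same pattern, at 34.8, 27.6 and 64.8 CPM in larval TRAP and 0.864, 0.0419 and 0 CPM in leg TRAP (7.59, SE 1.30, edgeR adjusted p = 0.00125, and 0.0558 in the robust fit, which ended the call). Neither gene overlapped between the groups.
Scr, a gene of the first thoracic segment and the head, was at 1.64, 0 and 0.728 CPM in larval TRAP and 16.6, 18.4 and 22.9 CPM in leg TRAP (-4.70, SE 1.03, edgeR adjusted p = 0.00673), and this call was lost with library size alone (edgeR adjusted p = 0.0628). Ubx stood at 35.9, 5.68 and 25.6 CPM in larval TRAP and 26.5, 25.6 and 25.1 CPM in leg TRAP, with a log2 difference of -0.08 and a 95% interval from -0.98 to 0.82, thus within 2-fold. Antp was at 29.6, 0 and 6.67 CPM in larval TRAP and 20.4, 20.7 and 23 CPM in leg TRAP, where larval replicate 2 had none.
The anterior genes were read mainly in larval replicate 1. The gene lab was at 12.1, 0.0180 and 0.340 CPM in larval TRAP and 0 in leg TRAP, called at an edgeR adjusted p of 0.0288, and lost without larval TRAP replicate 1 (0.223), without any single leg library and with library size alone (0.0812). Both pb (11.6, 0.0180 and 0.121 CPM in larval TRAP, 0.409, 0 and 0 CPM in leg TRAP) and Dfd (5.44, 0.0359 and 1.58 CPM in larval TRAP, 0.409, 0 and 0.0125 CPM in leg TRAP) missed the threshold.

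Of 23 genes that pattern the leg along its axes 2 were higher in larval TRAP and 2 lower, shares near the 8.69% and 8.34% of all genes. The higher ones were the trunk and proximal factor genes tsh and hth, and the lower ones the distal and middle leg factor genes Dll and dac. The gene tsh was at 35.4, 16.3 and 53.9 CPM in larval TRAP and 2.67, 2.35 and 3.30 CPM in leg TRAP (3.99, SE 0.49, edgeR adjusted p = 0.000107). Values of hth were 586, 98.6 and 502 CPM in larval TRAP and 38.4, 39.1 and 39.4 CPM in leg TRAP (3.48, SE 0.50, edgeR adjusted p = 0.000338). Dll, which marks distal leg cells, was at 14.6, 0 and 3.03 CPM in larval TRAP and 79.4, 105.2 and 79.0 CPM in leg TRAP (-4.10, SE 1.11, edgeR adjusted p = 0.0232), and it was not called with library size alone (edgeR adjusted p = 0.135) or in the robust fit (0.151). The number of lower genes of the list was between 1 (without leg TRAP replicate 2) and 4 (without larval TRAP replicate 1).

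Genes of muscle isoforms were called in opposite directions. Of 11 actin and troponin C genes 5 were higher in larval TRAP and 4 lower. Wholly above the leg samples lay 5 and wholly below 5, against 11.4% and 22.6% of all genes. TpnC73F (FBgn0010424, chromosome 3L from 17046063 to 17048390), a troponin C gene used in larval body wall muscle, was at 2000.1, 650.5 and 1808 CPM in larval TRAP and 4.82, 3.87 and 3.19 CPM in leg TRAP, a log2 difference of 8.81 (SE 0.73, edgeR adjusted p = 9.94e-06). TpnC41C, its counterpart in adult muscle, was at 1.15, 0 and 2.35 CPM in larval TRAP and 902, 884 and 1251 CPM in leg TRAP (-9.66, SE 1.28, edgeR adjusted p = 0.000184).
TpnC47D, likewise used in larval muscle, was higher at 126, 97.9 and 354 CPM in larval TRAP and 5.70, 6.90 and 5.02 CPM in leg TRAP (5.44, SE 0.60, edgeR adjusted p = 5.39e-05). TpnC25D, which overlaps tkv, was lower at 24.3, 10.7 and 27.6 CPM in larval TRAP and 138, 169 and 158 CPM in leg TRAP (-2.57, SE 0.41, edgeR adjusted p = 0.000727).
The muscle actin genes split likewise. Act57B, the main actin of larval muscle, was at 2428, 556 and 3405 CPM in larval TRAP and 205, 215 and 155 CPM in leg TRAP (3.68, SE 0.68). Act79B (FBgn0000045, chromosome 3L from 21985210 to 21987190), the actin of adult tubular muscles such as those of legs, was at 10.3, 0 and 0.0243 CPM in larval TRAP and 6867, 7843 and 9747 CPM in leg TRAP (-11.51, SE 2.15, edgeR adjusted p = 0.00242, and 0.0513 in the robust fit, which ended the call).
Act88F, the actin of the indirect flight muscles, was also lower, at 1.74, 0 and 0.0971 CPM in larval TRAP and 74.1, 55.5 and 69.6 CPM in leg TRAP. Act87E, at 607, 129 and 276 CPM in larval TRAP and 956, 1345 and 982 CPM in leg TRAP, did not pass (-1.54, SE 0.51, edgeR adjusted p = 0.0584). Flight muscle TpnC4 was near 0 in both, at up to 0.743 CPM in larval TRAP and 1.08 CPM in leg TRAP.
The cytoplasmic actins were higher in larvae, Act42A at 386, 174 and 236 CPM in larval TRAP and 59.6, 52.6 and 56.8 CPM in leg TRAP (2.59, SE 0.43, edgeR adjusted p = 0.00101), and Act5C at 1909.5, 1746 and 2048 CPM in larval TRAP and 555, 648 and 596 CPM in leg TRAP (2.2, edgeR adjusted p = 0.0365). Leaving out any single leg library ended the call of Act5C, at an edgeR adjusted p of up to 0.21. Actin genes are closely alike in sequence, so that the counting may have divided reads among them.

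**Figure D3:**
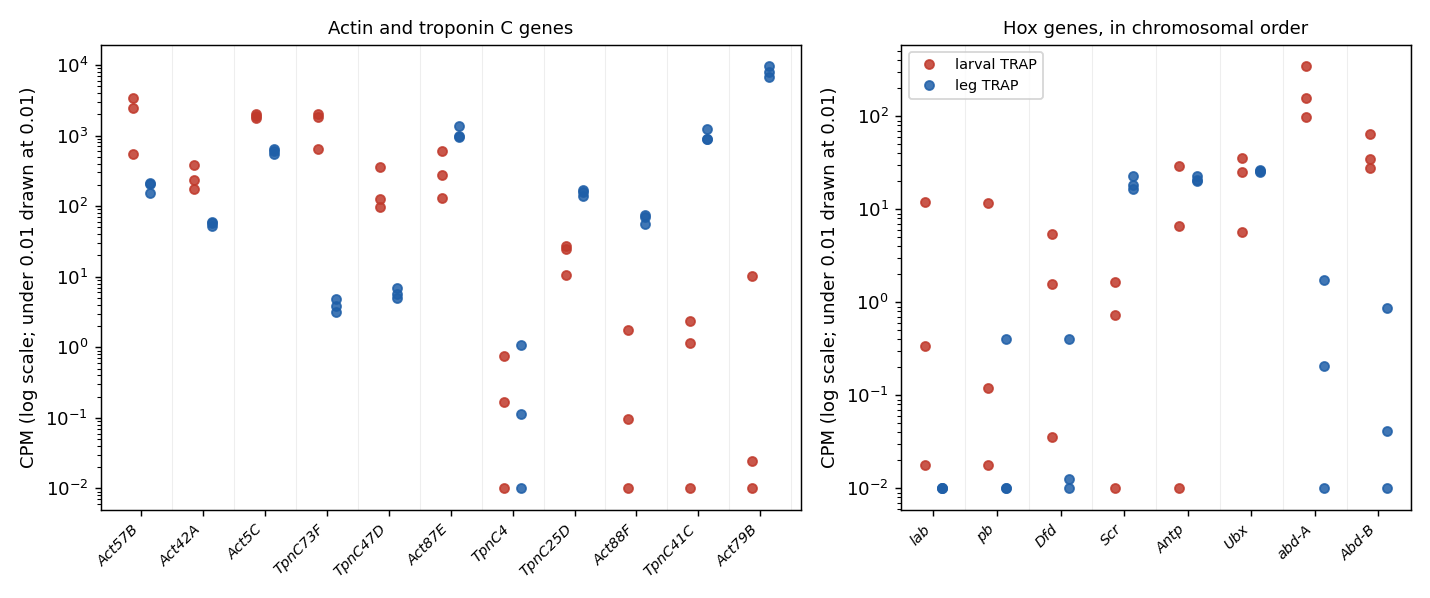
CPM (log axis, values under 0.01 drawn at 0.01) of each actin and troponin C gene (left) and each Hox gene in chromosomal order (right), with the 3 larval TRAP samples in red to the left of the 3 leg TRAP samples in blue. TpnC73F and abd-A lie high in every larval sample, and Act79B, TpnC41C and Scr in every leg sample, whereas lab, pb and Dfd are raised mainly in a single larval point.

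Of 34 general sarcomere genes 8 were higher and 1 lower, against 8.69% and 8.34% of all genes, 25 were not called and 1 lay within 2-fold. The sum over the list was 33151, 8598 and 41175 CPM in larval TRAP and 25773, 29076 and 31440.3 CPM in leg TRAP. Mlc2, the myosin regulatory light chain gene and the most abundant of the list, was at 4589, 2182 and 4803 CPM in larval TRAP and 5364, 5551 and 5817 CPM in leg TRAP (-0.18, SE 0.77, edgeR adjusted p = 0.879). The muscle factor Mef2 was at 77.5, 39.7 and 167 CPM in larval TRAP and 29.9, 35.4 and 30.3 CPM in leg TRAP (1.91, SE 0.47, edgeR adjusted p = 0.014), a call that ended with library size alone (edgeR adjusted p = 0.0823) and without any single leg library (up to 0.0729). Filamin (cher), at 1064, 103.8 and 1554 CPM in larval TRAP and 101, 162 and 44.8 CPM in leg TRAP, was the largest increase of the list, lost with library size alone (0.0503) and without leg TRAP replicate 3 (0.0691). The single lower gene was if, which encodes an alpha integrin of muscle attachment sites, at 94.2, 111 and 81.7 CPM in larval TRAP and 1034, 1745 and 1303 CPM in leg TRAP (-3.19, SE 0.65, edgeR adjusted p = 0.00444). With library size alone 1 gene was higher and 1 lower, and leaving out 1 library gave between 2 (without leg TRAP replicate 3) and 14 (without larval TRAP replicate 2) genes higher.
On the postsynaptic side of the neuromuscular junction, 3 of 11 genes were higher, namely the glutamate receptor subunit genes GluRIIA, GluRIID and GluRIIE, which larval muscle uses. GluRIIA was at 13.8, 1.96 and 14.2 CPM in larval TRAP and 0.455, 0.307 and 1.52 CPM in leg TRAP, and GluRIIE at 17.5, 3.22 and 30.1 CPM in larval TRAP and 0.849, 1.31 and 0.765 CPM in leg TRAP. GluRIID, at 20.1, 0.647 and 21.2 CPM in larval TRAP and 0.0758, 0 and 1.25 CPM in leg TRAP, overlaps GluRIIE and was not called with library size alone (edgeR adjusted p = 0.136) or without larval TRAP replicate 3, leg TRAP replicate 1 or leg TRAP replicate 2 (up to 0.0779), nor in the robust fit (0.146). The scaffold gene dlg1 was at 105.3, 18.6 and 56.0 CPM in larval TRAP and 63.7, 66.6 and 70.8 CPM in leg TRAP, with a log2 difference of -0.04 (95% interval -0.86 to 0.79). Omitting single libraries gave between 1 (without leg TRAP replicate 1) and 7 (without larval TRAP replicate 2) genes of this list higher.

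Many cytosolic ribosomal protein genes were higher in larval TRAP. Of 88 genes 39 were higher and 0 lower. Wholly above the leg samples lay 74 and wholly below 3, against 11.4% and 22.6% of all genes. The list summed to 55619, 44294 and 48539 CPM in larval TRAP and 24845, 22791 and 20244 CPM in leg TRAP. Its median log2 difference was 1.68, against -0.002 for genes of at least 10 CPM, and 1.19 against -0.38 with library size alone. In the driverless controls 8 of 88 were higher, near the 10% of all genes, at a median of 0.77 against 0.58 for all genes. A control median of genes of at least 10 CPM was not computed, so the TRAP and control medians have unlike references. The list summed to 28747, 15052 and 22725 CPM in larval controls and 14946 and 11979.7 CPM in leg controls. No member passed the test of the interaction, the difference between the TRAP and the control difference, which 2 of 16745 genes passed upward (0.0119%) and 1 downward (0.00597%). On simulated data that test recovered 0% of true log2 differences of 1 and 4.48% of those of 2, in genes of at least 10 CPM. It therefore cannot decide whether the TRAP and control differences of these genes are alike.
RpS21 (FBgn0015521, chromosome 2L from 2856070 to 2857029) had the largest difference, at 381, 388 and 333 CPM in larval TRAP and 61.9, 54.9 and 38.6 CPM in leg TRAP (3.41, SE 0.57, edgeR adjusted p = 0.00101). RpL41, the most abundant, was at 1602, 2166 and 1064 CPM in larval TRAP and 429, 341 and 354 CPM in leg TRAP, and its call ended without any single leg library (edgeR adjusted p up to 0.132). RpL10, the gene whose product carries the tag, was at 952, 1023 and 796 CPM in larval TRAP and 563, 588 and 471 CPM in leg TRAP (1.38, SE 0.61, edgeR adjusted p = 0.137). Its counts cannot tell native from transgene mRNA. The number of ribosomal protein genes called depended on the libraries, between 1 (without leg TRAP replicate 3) and 74 (without larval TRAP replicate 1), and on the tool, with 77 under DESeq2's Wald test.

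Of 53 translation factor genes 11 were higher and 1 was lower. The initiation factor gene eIF3a, at 103, 38.4 and 192 CPM in larval TRAP and 35.6, 28.2 and 30.2 CPM in leg TRAP (2.11, edgeR adjusted p = 0.00781), was the largest of them, and eIF3b and eIF3c of the same complex were also called. Under library size alone 0 were higher and 1 lower. The exception in either scaling was eIF4B (FBgn0020660, chromosome 3L from 27842669 to 27858271), a cofactor of the initiation helicase, at 2.27, 1.81 and 1.60 CPM in larval TRAP and 58.6, 79.2 and 104.3 CPM in leg TRAP (-4.90, SE 0.53, edgeR adjusted p = 4.58e-05). The elongation factor gene eEF1alpha1, the most abundant, was at 3952, 2469.8 and 7682 CPM in larval TRAP and 1942, 1797 and 1909.8 CPM in leg TRAP and missed the threshold (edgeR adjusted p = 0.146). Omitting 1 library at a time gave between 2 (without leg TRAP replicate 2) and 20 (without larval TRAP replicate 2) higher. Tctp, whose product is a conserved growth-linked protein, was at 840.4, 734 and 775 CPM in larval TRAP and 444, 432 and 459.9 CPM in leg TRAP, all larval values above all leg values, without passing (1.34, SE 0.56, edgeR adjusted p = 0.118).
Among 18 genes of RNA-binding proteins, including those of mRNA granules and splicing, 6 were higher (Imp, Syp, sqd, Hrb87F, stau and rin) and 1, the neuronal ELAV-family gene Rbp9, lower. Syp was at 1297, 347 and 1313 CPM in larval TRAP and 264, 286 and 239 CPM in leg TRAP (2.13, SE 0.52, edgeR adjusted p = 0.014), a call lost without any single leg library (up to 0.118). Rbp9, at 102, 19.8 and 65.4 CPM in larval TRAP and 162, 202 and 253 CPM in leg TRAP, was not called with library size alone (edgeR adjusted p = 0.0767) or without leg TRAP replicate 2 or 3 (up to 0.115). Across fits without 1 library there were between 2 (without leg TRAP replicate 1) and 9 (without larval TRAP replicate 2) of these genes higher.

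Nuclear genes of oxidative phosphorylation were called in 1 direction, lower in larval TRAP. Of 86 genes 20 were lower and 0 higher, and 73 lay wholly below the leg samples, against 22.6% of all genes. The list summed to 13539, 12840.0 and 12020.1 CPM in larval TRAP and 49239.8, 46189.8 and 55893 CPM in leg TRAP, and its median log2 difference was -1.33, against -0.002 for genes of at least 10 CPM. In controls 56 of 86 were lower and 0 higher. The called members include ND-42 and ND-51 of complex I, SdhA and SdhC of complex II, UQCR-C1 and Cyt-c1 of complex III, and blw, the ATP synthase alpha subunit gene. No gene of cytochrome oxidase (complex IV) was among the 20, where COX4 had a log2 difference of -1.25 and COX5A of -1.54 (edgeR adjusted p = 0.133 and 0.0797).
Cytochrome c, the carrier between complexes III and IV encoded by Cyt-c-p (FBgn0284248, chromosome 2L from 16719932 to 16722644), was at 133, 88.0 and 59.6 CPM in larval TRAP and 1618, 1386 and 1874 CPM in leg TRAP (-3.64, SE 0.64, edgeR adjusted p = 0.00148). The ATP synthase ring subunit gene ATPsynC, the most abundant, was at 881, 848 and 614 CPM in larval TRAP and 5647, 5923 and 6717 CPM in leg TRAP without overlap, and missed the threshold with TMM (-2.38, edgeR adjusted p = 0.0585) while passing it with library size alone (0.00123). With library size alone 64 were lower, and leaving out 1 library gave between 5 (without leg TRAP replicate 3) and 67 (without larval TRAP replicate 2) lower.
Of 73 mitochondrial ribosomal protein genes 9 were lower, near the 8.34% of all genes, and 0 higher, while 65 lay wholly below the leg samples against 22.6% of all genes. In controls 37 of the 73 were lower, against 10.7% of all genes, and 0 higher. The largest was mRpS31, at 5.05, 2.44 and 2.14 CPM in larval TRAP and 19.9, 20.7 and 25.8 CPM in leg TRAP (-2.41, edgeR adjusted p = 0.00637), a call lost without leg TRAP replicate 3 (0.0638). The most abundant, mRpL28, was at 38.8, 37.3 and 28.5 CPM in larval TRAP and 149, 152 and 170.1 CPM in leg TRAP and was lost without any single leg library or larval TRAP replicate 1 (edgeR adjusted p up to 0.124). Leaving out 1 library gave between 0 (without leg TRAP replicate 3) and 52 (without larval TRAP replicate 2) of the 73 lower.
Of 16 genes of mitochondrial import 1 was lower, against 8.34% of all genes, and 0 higher. The lower one was the inner membrane channel gene Tim23, at 103, 60.8 and 75.2 CPM in larval TRAP and 239, 254 and 392.3 CPM in leg TRAP (-1.47, edgeR adjusted p = 0.0415). Its call was lost without any single leg library or larval TRAP replicate 1 (up to 0.202). Of the outer membrane translocase genes, Tom7 was at 283, 409 and 195 CPM in larval TRAP and 434, 422 and 442 CPM in leg TRAP, and CG32267, which the study calls Tom5, at 65.4, 93.5 and 38.3 CPM in larval TRAP and 44.2, 49.0 and 42.8 CPM in leg TRAP. Neither passed (edgeR adjusted p = 0.859 and 0.144). Without larval TRAP replicate 2 the list held 7 lower genes.
No protein-coding gene of the mitochondrial genome passed the test. The cytochrome oxidase gene mt:CoI was at 2479, 830.3 and 1966 CPM in larval TRAP and 2111, 1958 and 2877 CPM in leg TRAP (-0.13, SE 0.63, edgeR adjusted p = 0.894), and mt:ND3 at 14.6, 4.44 and 41.1 CPM in larval TRAP and 29.8, 9.73 and 13.2 CPM in leg TRAP (edgeR adjusted p = 0.634). The 7 of 35 mitochondrial genes that were higher all encode tRNAs. Among them, mt:tRNA:Asn-GTT was at 13.3, 0.0359 and 25.7 CPM in larval TRAP and 0.0758, 0.0140 and 0.0376 CPM in leg TRAP. The part of short RNA in that difference was not tested. The count of mitochondrial genes higher was between 3 (without larval TRAP replicate 3) and 13 (without larval TRAP replicate 2).

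Neuronal genes were uneven among the larval replicates. The 47 pan-neuronal genes summed to 2317, 252 and 1169 CPM in larval TRAP replicates 1 to 3 and 1487, 1607 and 1449 CPM in leg TRAP. Of them 5 were higher and 8 lower, against 8.69% and 8.34% of all genes. Larval replicate 1 held most members at or above the leg level, and replicate 2 held them far below it. The driverless controls stood at 626, 1132 and 1329 CPM in larvae and 1623 and 1633 CPM in legs.
The driver genes themselves did not mark the preparations in every library. VGlut (FBgn0031424, chromosome 2L from 2391660 to 2410662, overlapping CG18641), which hosts the OK371 insertion, was at 42.8, 0.557 and 0.315 CPM in larval TRAP and 29.0, 28.2 and 42.1 CPM in leg TRAP (-1.47, SE 1.08, edgeR adjusted p = 0.33). It was thus near 0 in larval replicates 2 and 3, and was 0.0558, 1.92 and 0.355 CPM in larval controls and 37.3 and 30.7 CPM in leg controls. DIP-gamma, the surface receptor gene after which the leg driver is named, was at 7.10, 0 and 1.43 CPM in larval TRAP and 0.273, 0 and 0 CPM in leg TRAP, so that 2 of 3 driven leg samples had no count of it. The microtubule-binding protein gene futsch was at 64.4, 0.413 and 3.54 CPM in larval TRAP and 31.1, 36.6 and 27.7 CPM in leg TRAP (-0.76, edgeR adjusted p = 0.577).
Ion channel genes made up most of the higher members. KCNQ, a potassium channel gene overlapping CG18011, CR45133 and mlt, was at 59.3, 5.48 and 91.6 CPM in larval TRAP and 6.14, 8.55 and 6.33 CPM in leg TRAP (3.02, SE 0.64, edgeR adjusted p = 0.00538), and was not called with library size alone (edgeR adjusted p = 0.0563). The other 4 were the channel genes Sh, cac and Ih and the splicing factor gene Rbfox1.
Vesicle fusion genes were among the lower members. The neuronal synaptobrevin gene nSyb was at 14.9, 0.216 and 1.72 CPM in larval TRAP and 71.8, 92.0 and 84.1 CPM in leg TRAP (-4.09, SE 0.86, edgeR adjusted p = 0.00518) and Snap25 at 12.1, 0.0539 and 1.31 CPM in larval TRAP and 54.1, 72.6 and 53.7 CPM in leg TRAP. The sodium pump beta subunit gene nrv3 was at 42.6, 0.755 and 1.31 CPM in larval TRAP and 179, 195 and 229 CPM in leg TRAP (-4.01, SE 0.99, edgeR adjusted p = 0.0144), and the transporter gene Eaat2 at 3.64, 0.0719 and 0 CPM in larval TRAP and 26.6, 23.6 and 27.2 CPM in leg TRAP (edgeR adjusted p = 0.0195, and 0.0544 without leg TRAP replicate 3).
With library size alone 1 pan-neuronal gene was higher and 0 lower, the calls of nrv3 and Eaat2 among those lost (edgeR adjusted p = 0.11 and 0.122). The robust fit ended these calls too (0.114 for nrv3 and 0.13 for Eaat2). Without larval TRAP replicate 1, 4 were higher and 16 lower and the list's median log2 difference was -1.30, against -0.29 with all samples. Without larval TRAP replicate 2, 12 were higher and 8 lower.

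**Figure D4:**
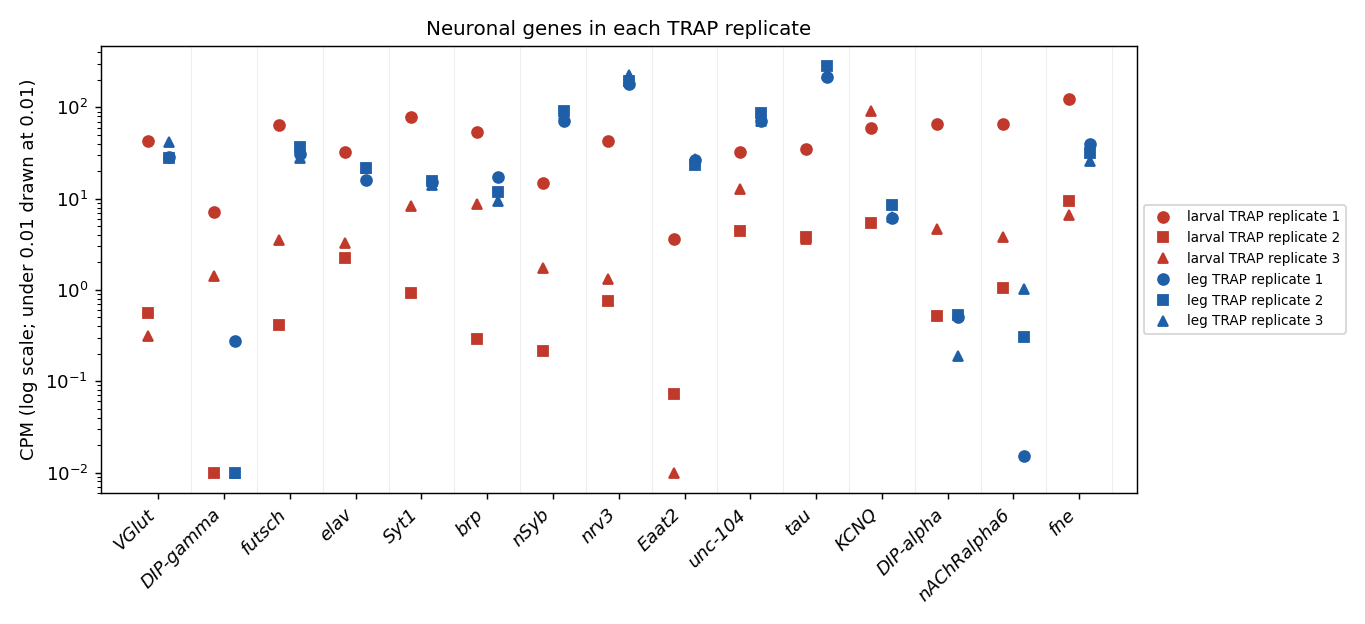
CPM (log axis, values under 0.01 drawn at 0.01) of 15 neuronal genes in larval TRAP (red) and leg TRAP (blue), with the replicate number given by the shape of the point. Larval replicate 1 (red circles) lies at or above the leg points for most genes and replicate 2 (red squares) lies below all leg points for 12 of them, while the 3 leg replicates lie close together.

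Genes of motor neuron identity were raised in larval replicate 1. Of 21 genes 3 were higher and 0 lower, against 8.69% and 8.34% of all genes. The higher ones were the surface receptor gene DIP-alpha and the transcription factor genes Lim3 and zfh1. The list summed to 411, 20.7 and 78.0 CPM in larval TRAP and 132, 124 and 147 CPM in leg TRAP. DIP-alpha (overlapping CG13021, CG2875, CR44999, MRE16 and ppk8), a partner-type receptor that some larval motor neurons carry, was at 65.9, 0.521 and 4.68 CPM in larval TRAP and 0.500, 0.531 and 0.188 CPM in leg TRAP (5.60, SE 1.21, edgeR adjusted p = 0.00625). That call ended without larval TRAP replicate 1 (edgeR adjusted p = 0.131), where the list held 1 higher and 2 lower genes. The adhesion gene Fas2, the most abundant of the list, was at 127, 14.6 and 24.1 CPM in larval TRAP and 58.9, 55.7 and 59.3 CPM in leg TRAP (-0.08, SE 0.48, edgeR adjusted p = 0.921).
Nicotinic receptor subunit genes behaved alike, with 3 of 10 higher (nAChRalpha1, nAChRalpha6 and nAChRalpha7) and 0 lower, against 8.69% and 8.34% of all genes. The level of nAChRalpha6 was 66.5, 1.04 and 3.76 CPM in larval TRAP and 0.0152, 0.307 and 1.02 CPM in leg TRAP (5.45, SE 1.39, edgeR adjusted p = 0.017, and 0.116 in the robust fit), and that of nAChRalpha3, the most abundant, 52.5, 1.11 and 2.18 CPM in larval TRAP and 12.5, 9.01 and 8.76 CPM in leg TRAP. Without larval TRAP replicate 1, 0 were higher and 1 lower, and with library size alone 0 were called. Of 8 genes of cholinergic and GABA transmission 0 were called under edgeR, DESeq2's Wald test or an unadjusted p under 0.05, and 3 were lower without larval TRAP replicate 1. The GABA receptor gene Rdl, the most abundant of them, was at 78.2, 0.395 and 5.97 CPM in larval TRAP and 20.2, 25 and 15.4 CPM in leg TRAP.
Odorant receptor genes had 3 of 60 higher and 1 lower, both below the 8.69% and 8.34% of all genes. The lower gene, Or47a, gave most of the leg sum at 0.646, 0.0180 and 0.510 CPM in larval TRAP and 44.6, 43.2 and 24.7 CPM in leg TRAP, and it overlaps the cuticle gene Cpr47Ea, from which its reads cannot be told apart. Or45a, which overlaps CG13739 and CG13954, was at 46.1, 0.0180 and 1.19 CPM in larval TRAP and 0, 0 and 0.0125 CPM in leg TRAP. Its call was lost without larval TRAP replicate 1 (edgeR adjusted p = 0.155), where 0 of the 60 were higher. Among larval replicates the odorant receptor sum, like the neuronal sums, was highest in replicate 1 and lowest in replicate 2. The part of such broadly read genes in the neuronal differences was not tested.

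Genes of axon guidance and transport held members of both directions. Of 33 guidance genes 5 were higher and 4 lower, against 8.69% and 8.34% of all genes. Dscam2, a cell surface receptor gene of dendrite and axon tiling, was at 44.4, 1.06 and 6.16 CPM in larval TRAP and 0.470, 0.0838 and 0.0125 CPM in leg TRAP (6.32, SE 1.37, edgeR adjusted p = 0.00635). Ten-m, PlexA, Sema2b and Ptp4E were the other higher genes. Fas1, an adhesion gene, was at 25.6, 9.15 and 14.4 CPM in larval TRAP and 144, 154 and 143 CPM in leg TRAP without overlap (-2.88, SE 0.39, edgeR adjusted p = 0.000225), and Fas3, caps and Sema1b were lower with it. With library size alone 1 was higher and 4 lower, and leaving out 1 library gave between 1 (without leg TRAP replicate 1) and 10 (without larval TRAP replicate 2) higher.
Of 28 genes of cytoskeleton and transport 3 were higher and 3 lower, shares near the 8.69% and 8.34% of all genes. The beta tubulin gene betaTub60D was at 52.7, 19.1 and 91.9 CPM in larval TRAP and 12.2, 8.16 and 5.76 CPM in leg TRAP (2.93, SE 0.50, edgeR adjusted p = 0.00133), and the microtubule-associated protein gene tau at 34.7, 3.81 and 3.59 CPM in larval TRAP and 216, 283 and 232 CPM in leg TRAP (-4.15, SE 0.65, edgeR adjusted p = 0.000654). The axonal kinesin gene unc-104 was lower as well, at 32.1, 4.38 and 12.6 CPM in larval TRAP and 70.2, 86.9 and 70.9 CPM in leg TRAP. The alpha tubulin gene alphaTub84B, the most abundant, was at 1684, 1055 and 1267 CPM in larval TRAP and 676, 714 and 657 CPM in leg TRAP (edgeR adjusted p = 0.114). Leaving out 1 library gave between 1 (without leg TRAP replicate 1) and 8 (without larval TRAP replicate 2) higher and between 2 (without leg TRAP replicate 1) and 5 (without larval TRAP replicate 2) lower.

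Of 40 neuropeptide precursor genes 5 were lower and 1 was higher in larval TRAP, against 8.34% and 8.69% of all genes, and the list summed to 398, 233 and 348 CPM in larval TRAP and 42057, 57257 and 47704 CPM in leg TRAP, nearly all of it Nplp3 and Nplp2. Nplp4 went the other way, at 121, 210.0 and 260.3 CPM in larval TRAP and 3.93, 4.47 and 1.87 CPM in leg TRAP (6.50, SE 0.72, edgeR adjusted p = 5.53e-05). Nplp2, which is also carried by blood cells, was at 34.9, 8.12 and 9 CPM in larval TRAP and 2531, 2303 and 3189.6 CPM in leg TRAP (-7.11, SE 0.78, edgeR adjusted p = 4.99e-05). The feeding peptide gene NPF was at 0.0978, 0 and 0 CPM in larval TRAP and 12.6, 15.2 and 14.4 CPM in leg TRAP, and CNMa and CCHa2 were lower too.
Of 71 odorant-binding and contact chemosensory protein genes 30 were lower and 2 higher, against 8.34% and 8.69% of all genes, at a median log2 difference of -2.94 against 0.72 for all genes. Next to Obp57a lies Obp57b, with 0 counts in larval TRAP and 343, 389 and 424 CPM in leg TRAP, whereas Obp57d of the same cluster was higher, at 1036, 765 and 795 CPM in larval TRAP and 52.1, 43.6 and 46.0 CPM in leg TRAP. Obp50d had 20.6, 36.2 and 19.1 CPM in larval TRAP and 0 counts in leg TRAP, at least 607-fold higher (edgeR adjusted p = 2.86e-05). Obp56d, the most abundant in larvae, was at 3370.2, 2532 and 1289 CPM in larval TRAP and 818, 1298 and 1161 CPM in leg TRAP and was not called (edgeR adjusted p = 0.134).
The receptors themselves were low in both. Of 120 gustatory and ionotropic receptor genes 7 were higher and 3 lower, both below the shares of all genes, and the lower genes include the broad co-receptors Ir76b (1.90, 0 and 0.0971 CPM in larval TRAP, 47.0, 44.4 and 55.1 CPM in leg TRAP, edgeR adjusted p = 0.00113) and Ir25a (1.58, 0 and 0.194 CPM in larval TRAP, 31.1, 37.7 and 30.2 CPM in leg TRAP), which serve many taste and smell neurons. All 7 higher receptors had their highest value in larval replicate 1, and without it 0 were higher and 7 lower. Of 24 mechanosensory genes 2 were lower, a share near the 8.34% of all genes, namely ppk, a channel subunit gene of sensory neurons (0.763, 0 and 0.413 CPM in larval TRAP, 10.2, 7.23 and 15.0 CPM in leg TRAP), and DCX-EMAP. The call of ppk was lost with library size alone (edgeR adjusted p = 0.071) and without leg TRAP replicate 3 (0.102). The cilium gene rempA was at 124, 121 and 109 CPM in larval TRAP and 147, 145 and 137 CPM in leg TRAP (edgeR adjusted p = 0.673).

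Markers of glia, blood cells, fat body and trachea were detected in both preparations. Among 22 glial genes 1 was higher and 4 lower, against 8.69% and 8.34% of all genes. Their sums were 923, 566 and 1503 CPM in larval TRAP and 1689, 1950.1 and 2001 CPM in leg TRAP. The glial glutamate transporter gene Eaat1 (FBgn0026439, chromosome 2L from 9333567 to 9341925) was at 4.85, 0.395 and 0.898 CPM in larval TRAP and 202, 225 and 262 CPM in leg TRAP (-6.85, SE 0.67, edgeR adjusted p = 2.56e-05). In contrast loco, a signalling gene of glia and other cells, was at 76.5, 65.4 and 147 CPM in larval TRAP and 26.5, 26.4 and 28.0 CPM in leg TRAP (2.29, SE 0.46, edgeR adjusted p = 0.00409). Glutamine synthetase, encoded by Gs2, was at 579, 337 and 289 CPM in larval TRAP and 865, 1079 and 1005 CPM in leg TRAP (edgeR adjusted p = 0.259). Leaving out 1 library gave between 4 (without larval TRAP replicate 3) and 8 (without larval TRAP replicate 2) lower.
Of 13 genes of haemocytes 4 were higher and 2 lower, against 8.69% and 8.34% of all genes. Among the higher were the surface receptor genes He (overlapping NimB5, 16.4, 7.51 and 6.96 CPM in larval TRAP, 0.667, 1.35 and 0.865 CPM in leg TRAP, 3.78, edgeR adjusted p = 0.00379) and eater. Nplp2 was among the lower and gave most of the leg sum. The list summed to 366, 78.5 and 326 CPM in larval TRAP and 2748, 2568 and 3364 CPM in leg TRAP. In the larval fat body list 5 of 13 were higher, the storage protein genes Lsp1alpha, Lsp1beta and Lsp1gamma, the storage protein receptor gene Fbp1 and Fbp2, and 2 were lower. Fbp1 was at 389, 133 and 145 CPM in larval TRAP and 0.0152, 1.27 and 0.238 CPM in leg TRAP (9.05, SE 1.16, edgeR adjusted p = 0.000155), and the iron carrier gene Tsf1 at 48.3, 53.3 and 45.5 CPM in larval TRAP and 564, 785 and 546 CPM in leg TRAP (-3.08, SE 0.57, edgeR adjusted p = 0.00231). Of 9 tracheal genes 1 was higher, against 8.69% of all genes, and 0 lower. The higher one was dpy, which encodes a giant matrix protein, at 896, 49.9 and 539.7 CPM in larval TRAP and 91.5, 113 and 69.8 CPM in leg TRAP. Its call was lost with library size alone (edgeR adjusted p = 0.0918) and without any single leg library (up to 0.101). The tracheal and epidermal matrix gene pio was at 306, 145 and 213 CPM in larval TRAP and 377, 450.0 and 308 CPM in leg TRAP.
The yolk protein genes of adult females were lower in larval TRAP, with Yp1 at 13.5, 0 and 0.679 CPM in larval TRAP and 1269.8, 2173 and 14.8 CPM in leg TRAP and Yp2 at 1.98, 0.0719 and 0.0243 CPM in larval TRAP and 991, 1262 and 8.65 CPM in leg TRAP (edgeR adjusted p = 0.0111 and 0.00156). Leg replicate 3 was far below the other 2 leg samples in both, and the call of Yp1 was lost with library size alone (0.0643). In the robust fit neither was called (edgeR adjusted p = 0.131 for Yp1 and 0.0625 for Yp2). Of 26 replication and cell cycle genes 2 were higher, a share near the 8.69% of all genes, and 0 lower. The higher ones were CycE (13.2, 10.3 and 16.7 CPM in larval TRAP, 1.59, 0.0559 and 0.853 CPM in leg TRAP, edgeR adjusted p = 0.00694, 0.0509 with library size alone) and RnrL. The replication inhibitor gene geminin, the most abundant, was at 14.3, 8.27 and 6.38 CPM in larval TRAP and 20.2, 19.2 and 16.7 CPM in leg TRAP.

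Immune and stress genes formed the closing contrast. Of 28 antimicrobial and immune-induced peptide genes 17 were lower in larval TRAP and 0 higher, against 8.34% and 8.69% of all genes. Their median log2 difference was -4.72, against 0.72 for all genes. Wholly below the leg samples lay 22 of the 28, against 22.6% of all genes. In controls 17 were lower and 0 higher as well. IM23 was at 0.0391, 0 and 0 CPM in larval TRAP and 85.2, 85.5 and 121 CPM in leg TRAP (edgeR adjusted p = 3.88e-06). The antifungal peptide gene Drs was at 33.5, 5.86 and 4.37 CPM in larval TRAP and 605, 597 and 432 CPM in leg TRAP. Its relative Drsl5 was at 36.5, 358 and 2558 CPM in larval TRAP and 304, 385 and 227 CPM in leg TRAP, which covered a wide range in larvae and was not called (edgeR adjusted p = 0.17). Drsl5 supplied nearly the whole list sum of larval replicate 3.
Of 32 heat shock and stress genes 7 were higher and 7 lower, against 8.69% and 8.34% of all genes. The small heat shock genes Hsp23, Hsp26 and Hsp27, which encode chaperones and are known to respond to ecdysone, were higher, with Hsp23 at 1002, 863 and 2189.9 CPM in larval TRAP and 11.5, 26.4 and 20.2 CPM in leg TRAP (6.57, SE 0.78, edgeR adjusted p = 8.49e-05) and Hsp27 at 556, 551 and 792 CPM in larval TRAP and 15.3, 7.97 and 8.84 CPM in leg TRAP. The Turandot stress peptide genes TotA, TotC, TotM and TotX were lower, as was the heat shock cognate gene Hsc70-1. TotM was at 0.196, 0 and 0 CPM in larval TRAP and 32.7, 52.6 and 16.1 CPM in leg TRAP (-8.90, SE 1.02, edgeR adjusted p = 6.79e-05). The general chaperone gene Hsc70-4, the most abundant, was at 517, 282 and 1498 CPM in larval TRAP and 992, 959 and 1103 CPM in leg TRAP (-0.08, SE 0.62, edgeR adjusted p = 0.937).

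Genes shown to be alike were few. A gene that misses the threshold need not have the same level, so the 95% interval of the log2 difference was used, and in 187 genes it lay within 2-fold in either direction. Another 13497 genes were neither called nor within this limit. Among the 187 with the highest level, chosen after their values were seen, were Ubi-p63E, a polyubiquitin gene, at 245, 145 and 206 CPM in larval TRAP and 259, 262 and 293 CPM in leg TRAP (95% interval -0.97 to 0.90), and the kinase gene CkIalpha, at 209, 63.0 and 188 CPM in larval TRAP and 164, 164 and 171 CPM in leg TRAP. Proton pump genes of acid organelles were also among them, namely VhaM8.9 (241, 140.5 and 149 CPM in larval TRAP, 221, 215 and 260.0 CPM in leg TRAP), VhaPPA1-1 and Vha100-2. The count was 0 without leg TRAP replicate 1 and 879 without larval TRAP replicate 2, and it moved over 1.5 times with several other settings.

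Driverless controls showed most of the same differences. These comparisons share tissue, stage and sequencing order but no sample. Of the 1434 genes higher in larval TRAP 905 were higher in larval controls too, which is 63.1% of the TRAP genes and 54.7% of the control genes, and the control difference was positive in 1396. Of the 1376 lower genes 1138 were lower in controls, 82.7% of the TRAP genes and 64.1% of the control genes, and the sign was negative in 1370. The remaining 38 and 6 genes had the opposite sign in controls, and 0 of them were called there. Control calls ranged between 730 (without leg control replicate 1) and 2592 (without larval control replicate 1) higher and between 1055 (without leg control replicate 2) and 2333 (without larval control replicate 1) lower when 1 library was left out.
The larval minus leg difference of TRAP samples departed from that of controls in 3 of 16745 genes in a model of all 11 samples, 2 upward and 1 downward. On simulated data this edgeR test recovered 4.48% of true log2 differences of 2 and 80.3% of those of 4, in genes of at least 10 CPM. Recovery in genes below that level was not measured. The small number of genes called thus does not show that the other differences are alike. At an unadjusted p under 0.05 the counts were 620 and 270. DESeq2's Wald test gave 94 and 33, and with library size alone edgeR gave 0 and 0. CG14456 (FBgn0037176, chromosome 3L from 22687222 to 22688288) rested on the leg controls, at 0.763, 0.0719 and 0 CPM in larval TRAP, 0.0152, 0.0140 and 0.113 CPM in leg TRAP, 0, 0.374 and 0.144 CPM in larval controls and 530.2 and 524 CPM in leg controls. CG4576 (FBgn0038366, chromosome 3R from 15825747 to 15830321, overlapping rec) was at 70.3, 26.7 and 36.0 CPM in larval TRAP and 0.0152, 0 and 0 CPM in leg TRAP, where controls stood at 71.3, 65.9 and 82.3 CPM in larvae and 1.46 and 0.735 CPM in legs. GILT3, a gene of the thiol reductase family of lysosomes, was at 41.2, 7.85 and 24.1 CPM in larval TRAP and 4.64, 4.36 and 5.44 CPM in leg TRAP, against 20.2, 53.9 and 40.5 CPM in larval controls and 0.346 and 0.374 CPM in leg controls. Its interaction was -4.31 on the log2 scale (SE 0.63, edgeR adjusted p = 0.0306). No downward gene was called with relative log expression factors, with library size alone, when every sample had to hold 1 count, or with any 1 of larval TRAP replicate 2, leg TRAP replicates 1 and 3, larval control replicates 2 and 3 and the 2 leg controls left out, so that the call of GILT3 was lost in each. VGlut had an interaction of 3.81 (SE 1.72, edgeR adjusted p = 0.925).

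**Figure D5:**
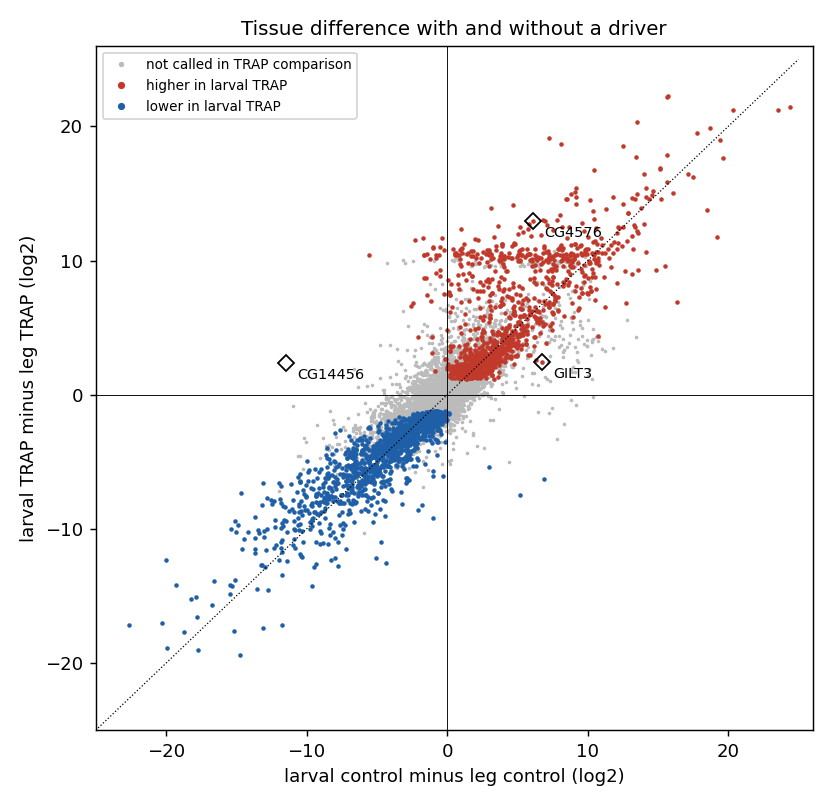
Log2 difference larval minus leg of 10945 genes with enough reads to be drawn, in TRAP samples (vertical) and in driverless controls (horizontal), with genes higher in larval TRAP in red, lower in blue, not called in grey, and the 3 genes of the interaction as open diamonds. Most coloured points lie near the dotted line of equal difference, and the horizontal band near 10 is made mostly of genes with 0 counts in all leg TRAP samples, whose fitted differences depend on the small count that the fit adds.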

How the data were processed

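An outside provider made the cDNA with SMART-Seq HT, a kit that does not mark strand, and sequenced the libraries. Reads were trimmed with Trim Galore, aligned with HISAT2 2.2.1 to BDGP6 and counted on genes in SeqMonk, per the submitters' processing notes and the paper's methods. The deposited tables hold raw counts for 16977 genes, as whole numbers without normalization. The unit counted (reads or pairs), the treatment of introns and the strand setting are not given in the sources used here, so overlapping genes and antisense partners cannot be told apart. The authors excluded another leg control for DNA contamination. Without molecular identifiers, counts are not independent molecules. Of the gene IDs 16872 were in the reference annotation, 16755 with the same coordinates.

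The larval and leg tables were joined by gene ID. Differences were tested in edgeR 4.0.16 (quasi-likelihood F-test, TMM, genes with at least 1 count in the comparison, Benjamini-Hochberg adjusted p under 0.05, R 4.3.3), in 3 larval and 3 leg TRAP samples, in 3 and 2 controls, and for the interaction in all 11. Standard errors were derived from the F statistic, and intervals are 95%. Scripts were checked on simulated data with changes set in 200 genes. In edgeR the TRAP comparison recovered 2.99%, 37.3% and 97.0% of true log2 differences of 1, 2 and 4. The interaction recovered 0%, 4.48% and 80.3% of them. Replicates were biological, each from its own collection of animals, per the paper's methods. Alternatives were DESeq2 1.42.0, other scaling factors, stricter filters, an adjusted p under 0.01, an absolute log2 difference of at least 1, a robust fit, all 11 samples in one fit, a replicate block and each library left out.

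The 39 lists (1258 genes) and the comparison itself were chosen with earlier results of these data known. After the tables arrived, but before their values were compared, Arr1, Cam, Sarm1, CG32121, vkg, Nrg, AP-1-2beta, dpr1 and Vmat were dropped and the adult cuticle list was reduced to 2 genes. Named were the genes the paper names, the 12 largest differences in each direction with a mean of 50 CPM or more on the higher side and no overlap, all Hox, actin and troponin C genes, the largest called member of each list in each direction with at least 10 CPM, the most abundant member of each list, and up to 3 interaction genes in each direction. Not every gene that the rule covers is reported here. Any other gene named, such as EcR, sage, Drs or Snap25, was chosen after its values were seen.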

Additional observations from a re-analysis of the deposited data

Results flagged for a closer look

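In 3 genes the larval minus leg difference of TRAP samples departed from that of driverless controls by the interaction test of edgeR, and the values are given without explanation. For CG14456 the interaction was 13.92 on the log2 scale (SE 1.65, edgeR adjusted p = 0.00542), a fitted value that depends on the prior count because 3 of the 4 groups were near 0. For CG4576 it was 6.90 (SE 0.85, edgeR adjusted p = 0.00542), and leg TRAP libraries held at most 1 count. For GILT3 it was -4.31 (SE 0.63, edgeR adjusted p = 0.0306), a call lost with relative log expression factors, with library size alone, when every sample had to hold 1 count, at an adjusted p under 0.01 and in 7 of the 11 fits that left out 1 library. The levels were higher in larval TRAP than in leg TRAP in all 3 larval samples for CG4576 and GILT3, whereas CG14456 was near 0 in both and separated only the leg controls from the other groups. The leg controls were 2 samples, and within legs the TRAP minus control difference of CG14456 was -13.34 (edgeR adjusted p = 0.000948), that of CG4576 -7.42 (0.00045) and that of GILT3 3.71 (0.013). Groups held 3 or fewer samples, so that no test for a single outlying sample was run.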

How the results depend on the processing

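Against 1434 genes higher and 1376 lower in larval TRAP, DESeq2's Wald test gave 2854 higher, library size alone 647 higher, and an adjusted p under 0.01 gave 628 higher and 869 lower. Leaving out 1 library gave 652 to 2559 higher and 935 to 2189 lower. Against 1654 higher and 1775 lower in controls, DESeq2 gave 2752 higher, the replicate block 1005 higher, and an adjusted p under 0.01 gave 875 higher and 1136 lower, with 730 to 2592 higher and 1055 to 2333 lower when 1 library was left out. The interaction, 2 upward and 1 downward, had 94 and 33 genes with DESeq2, 0 and 0 with library size alone or when every sample had to hold 1 count, 7 and 3 with the replicate block, 0 downward with relative log expression factors and with an adjusted p under 0.01, 2 downward with the robust fit, and 2 to 7 upward and 0 to 7 downward with 1 library left out. The 187 genes within 2-fold became 331 with relative log expression factors, 345 with TMM computed without ribosomal, muscle, cuticle and mitochondrial genes, 360 with filterByExpr, 464 when every sample had to hold 1 count, 11 with the replicate block, 686 in a fit of all 11 samples, and 0 to 879 with 1 library left out. The cause of these shifts was not tested.

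Some medians changed sign. With filterByExpr the median log2 difference was -0.706 for gustatory and ionotropic receptors, -0.53 for odorant receptors and -0.58 for resilin and yellow genes. When every sample had to hold 1 count it was -0.0346 for Hox genes, -0.274 for gustatory and ionotropic receptors, -0.17 for Cpr genes and -0.55 for resilin and yellow genes, and these filters remove genes at 0 in a group. With 1 library left out it ranged between -0.11 (without larval TRAP replicate 3) and 0.82 for resilin and yellow genes and between -0.83 (without larval TRAP replicate 1) and 2.02 for neuropeptides. The edgeR log2 difference of nAChRalpha3 ranged between -1.92 (without larval TRAP replicate 1, adjusted p = 0.0498) and 1.23. That of Rdl ranged between -2.30 (without larval TRAP replicate 1, adjusted p = 0.0331) and 0.87. That of Tom7 ranged between -0.88 (without larval TRAP replicate 2, adjusted p = 0.0339) and 0.51. Of 95 named genes called, 79 kept their call with library size alone.

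Same-numbered samples were not paired by the labels, and their deviations from the group means correlated at 0.117, 0.0086 and -0.0052. The replicate block gave 1064 higher and 1416 lower genes in TRAP samples. Depth limits genes under about 0.0728 CPM in larval TRAP and 0.0455 CPM in leg TRAP.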
